A study of Mus musculus with 18 samples.

Results

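Tumours of parous and nulliparous mice with intact Snai2 were compared, all from mice with metastasis. These are the 8 of the 18 arrays titled as Snai2 WT ERBB2, 4 parous and 4 nulliparous, each 1 array of total RNA from a mammary tumour that the labels call luminal and ERBB2+. All 8 mice carried the neu transgene of FVB/N-Tg(MMTVneu)202Mul/J, in which the mouse mammary tumour virus promoter drives the rat ErbB2 protooncogene in mammary epithelium, so no group lacks it and none is normal gland. Parous mice had been through pregnancy and nulliparous mice had not; how many pregnancies, how long before sampling and at what age are not stated in the labels. The 10 other arrays are of ERBB2+ tumours from Snai2 KO mice, which carry the Snai2 deletion of B6;129S1-Snai2tm2Grid/J, and enter the fit for the spread between tumours. They comprise 3 parous with metastasis (2 of these arrays nearly identical and averaged), 3 parous without, 1 nulliparous with and 3 nulliparous without, so 9 KO samples remained. The labels do not state the strain background of each mouse, and differences between groups in background cannot be told apart from parity.

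ERBB2 is a receptor tyrosine kinase that signals through the MAPK and PI3K pathways, and its overexpression in the mammary epithelium of mice gives luminal tumours that spread to the lung. Pregnancy drives the alveolar epithelium to expand and make milk, and involution afterwards removes most of it, leaving a gland whose cells and stroma differ from those of a gland that has never lactated. Snai2 is a zinc finger repressor that binds E-box sequences and is best known from epithelial-mesenchymal transition and from basal mammary cells.

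Levels are given as log2 values, in which a difference of 1 is a factor of 2, and differences as parous minus nulliparous with their standard error (SE). Of 19938 genes, 478 passed the threshold (limma, Benjamini-Hochberg adjusted p under 0.05), which is 2.4%: 108 rose (0.542%) and 370 fell (1.86%). Chromosomes 2 and 4 held 229 of these, and a list of 146 interferon and antigen presentation genes, of which 52 fell, held a further 45 off those chromosomes. The account here is of what remains: 16918 genes, of which 204 passed (1.21%), 107 higher in parous tumours (0.632%) and 97 lower (0.573%). The gene lists described below keep their members on chromosomes 2 and 4. When the genes were quantile normalized again, 69.1% of the calls off chromosomes 2 and 4 and outside the list were rises, against 52.5% as deposited. The 4 parous and 4 nulliparous values did not overlap in 201 of the 204, against 10.6% of the 16918. The median log2 difference was 0.68 among the risen and -0.57 among the fallen genes, and 28 and 14 of them changed at least 2-fold. Over all genes the median was -0.005, with 48.3% above 0.

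The labels were checked first. Krt8 and Krt18, the keratin pair of luminal cells, stood at the 99.7 percentile of all genes, with Krt8 between 13.09 and 13.63 in the 8 tumours. The basal keratins Krt5 and Krt14 were dim, between 6.44 and 7.2, at the 27.6 and 34.4 percentiles. Krt19, another luminal keratin, was dim too, at the 35.1 percentile. Erbb2 lay at the 99.3 percentile and between 12.45 and 12.92, with a difference of 0.09 (SE 0.09, adjusted p = 0.719); whether its probes read the transgene was not tested. Snai2 itself was dim, between 6.68 and 7.09, and differed by -0.03 (SE 0.13, adjusted p = 0.947) between the groups. In the 9 KO samples it lay between 6.28 and 6.79, which overlaps the WT range, so this probe set does not separate the genotypes sample by sample; the position of its probes relative to the deletion was not tested.

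The 4 stretches of sequence printed here are examples that hold known binding motifs before the starts of genes that moved. They do not stand for all such genes, since the stretches of Fetub, Dlgap1, Cnmd and Vsnl1 hold no match to the motifs searched. Each printed stretch is the 250 bases upstream of the first start that RefSeq (GRCm38.p6) gives. It runs 5′ to 3′ on the strand of the gene, with motif matches in capitals. Pglyrp1 (chr7:18884440-18884689 on the plus strand) rose and holds the E-box CAGGTG to which Snail factors bind. Mme (chr3:63294961-63295210 on the plus strand) rose and holds TTCNNNGAA, the palindrome of Stat factors. H2-M3 (chr17:37269984-37270233 on the plus strand) fell and holds a Stat palindrome directly followed by ACGTG, the core of the hypoxia response element. Mitd1 (chr1:37890412-37890661 on the minus strand) fell and holds, in this order, the core of the interferon-stimulated response element, an E-box and a Stat palindrome.
Pglyrp1: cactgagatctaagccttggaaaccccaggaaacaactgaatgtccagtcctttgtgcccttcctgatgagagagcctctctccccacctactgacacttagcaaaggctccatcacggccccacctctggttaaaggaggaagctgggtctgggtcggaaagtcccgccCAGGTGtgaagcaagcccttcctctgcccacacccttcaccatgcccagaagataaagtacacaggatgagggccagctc
Mme: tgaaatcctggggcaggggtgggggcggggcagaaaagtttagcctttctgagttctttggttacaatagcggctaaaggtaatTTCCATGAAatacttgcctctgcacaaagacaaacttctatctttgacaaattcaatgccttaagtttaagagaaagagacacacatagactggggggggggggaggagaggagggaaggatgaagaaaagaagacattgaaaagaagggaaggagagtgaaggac
H2-M3: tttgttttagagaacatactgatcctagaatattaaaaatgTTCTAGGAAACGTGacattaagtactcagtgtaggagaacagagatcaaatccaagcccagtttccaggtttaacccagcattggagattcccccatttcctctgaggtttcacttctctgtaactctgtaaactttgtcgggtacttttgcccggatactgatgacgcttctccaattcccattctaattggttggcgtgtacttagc
Mitd1: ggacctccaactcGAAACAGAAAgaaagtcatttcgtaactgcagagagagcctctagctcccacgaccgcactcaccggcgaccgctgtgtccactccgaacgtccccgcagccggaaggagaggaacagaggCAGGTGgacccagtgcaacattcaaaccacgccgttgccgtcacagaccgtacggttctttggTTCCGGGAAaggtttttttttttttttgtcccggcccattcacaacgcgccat
Across such stretches, searched on both strands, the Stat palindrome was found in 6.7% of the 15614 tested genes with a sequence, in 4 of 85 risen (4.71%) and 11 of 74 fallen genes (14.9%). The interferon element core was found in 2.93% of all, in 0 of 85 risen and in 6 of 74 fallen genes (8.11%). The E-box was found in 16.6% of all, in 9.41% of risen and 13.5% of fallen genes, and ACGTG in 18.5%, 18.8% and 24.3%. These shares describe letters in a window and were not tested. The fallen genes counted here still include some, such as H2-M3, H2-T10 and Cfb, that belong to the same processes as the interferon list.

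Fetub had the largest rise. This secreted inhibitor of metalloproteinases, which the liver is known to make, was at 12.2, 11.27, 12.88 and 12.83 in the parous and 6.67, 9.44, 8.56 and 7.23 in the nulliparous tumours. The groups did not overlap, with parous 2 the lowest of its group and nulliparous 2 the highest of the other. The difference was 4.32 (SE 0.84, adjusted p = 0.0242), a factor of 20. Pglyrp1, a secreted peptidoglycan recognition protein of granulocytes and mucosa, was at 12.2, 12.78, 12.63 and 12.83 against 9.15, 9.92, 9.4 and 8.46. All 4 parous tumours lay more than 2 log2 units above all 4 nulliparous ones, and the difference was 3.38 (SE 0.43, adjusted p = 0.00521), a factor of 10.4. Cnmd, chondromodulin, a cartilage glycoprotein that limits vessel growth, was at 11.4, 11.17, 11.57 and 10.03 against 7.61, 8.06, 9.16 and 7.8 (2.89, SE 0.39, adjusted p = 0.00698). Its groups were apart as well, nulliparous 3 being the nearest to the parous range.

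Mme and Cpe, peptidase genes, were among the 14 largest rises. Mme, neprilysin, which cleaves peptides at the cell surface, was at 12.06, 11.52, 12.26 and 12.4 in parous and 9.65, 7.72, 8.98 and 9.22 in nulliparous tumours, a factor of 9.0 (log2 difference 3.17, SE 0.50, adjusted p = 0.0105). Cpe, the carboxypeptidase that trims prohormones, was at 11.12, 11.45, 12.05 and 11.98 against 7.69, 9.61, 8.83 and 7.7, a factor of 9.13 (log2 difference 3.19, SE 0.64, adjusted p = 0.0256). Both were bright in all parous tumours, and the nulliparous tumours varied among themselves by about 2 log2 units. Bche, butyrylcholinesterase, rose by 2.56 (SE 0.50, adjusted p = 0.0243) and Cmbl, a hydrolase, by 1.88 (SE 0.42, adjusted p = 0.0365). Of the 22 measured genes of the list of membrane peptidases and prohormone processing, Mme and Cpe alone passed; 16 lay below 0, with a median of -0.20. Cpm, a related carboxypeptidase, had a difference of 1.91 (SE 1.13) and did not pass (adjusted p = 0.45), although its groups did not overlap.

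Genes known from neurons moved in opposite directions. Dlgap1, a scaffold of the postsynaptic density, was at 10.51, 9.97, 10.69 and 10.57 in parous and 6.83, 6.86, 7.31 and 7.09 in nulliparous tumours (3.41, SE 0.63, adjusted p = 0.0189). Vsnl1, a neuronal calcium sensor, was at 6.49, 6.13, 6.03 and 6.06 in parous and 10.45, 9.98, 11 and 9.93 in nulliparous tumours. No gene off chromosomes 2 and 4 and outside the interferon list fell by more than Vsnl1 (-4.16, SE 0.65, adjusted p = 0.0105), a factor of 17.9. The parous values of Vsnl1 and the nulliparous values of Dlgap1 are those of dim genes, so each was bright in 1 group only. Map1b, a microtubule protein of neurites, fell by 1.39 (SE 0.33, adjusted p = 0.0475). Of 38 measured neuronal and neuroendocrine genes, Dlgap1 rose, Vsnl1 fell and 36 did not pass (median 0.03), so the list did not move as a whole. Npy, a neuropeptide, was at 12.71 and 12.88 in nulliparous 1 and 4, at 8.39 and 7.34 in nulliparous 2 and 3, and between 7.28 and 7.63 in parous tumours; it did not pass (adjusted p = 0.30).

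Ion channels and receptors were among the rises. Trpm3, a cation channel opened by heat and steroids, was at 10.36, 8.25, 10.81 and 10.57 in parous against 6.97, 7.74, 7.79 and 7.02 in nulliparous tumours (2.62, SE 0.50, adjusted p = 0.0231). Parous 2 was the low one of its group, and the groups still did not overlap. Trpv4, a channel opened by stretch and osmotic change, was at 9.24, 9.26, 9.28 and 9.12 against 8.31, 8.1, 8 and 8.08 (1.10, SE 0.24, adjusted p = 0.0365). Trpm3 and Trpv4 were the 2 of 32 Trp and other calcium channel genes that passed, and the median of the list was -0.02. The Trpv4 call ended without any 1 of the 8 WT tumours (adjusted p up to 0.11). The Trpm3 call held in 3 of these 8 omissions. Ghr, the growth hormone receptor, was at 10.71, 10.53, 10.95 and 10.73 against 9.94, 9.87, 9.61 and 9.05 (1.11, SE 0.26, adjusted p = 0.0467). It was the 1 of 17 genes of the IGF and growth hormone axis that passed, and the call ended without any 1 of the 8 tumours (adjusted p up to 0.143). Chrm1, a muscarinic acetylcholine receptor, Sema5a, a guidance semaphorin, and Cd200, a ligand that restrains myeloid cells, were named after their values were seen. They rose by 1.08, 1.25 and 0.89. The Chrm1 and Cd200 calls each held in 2 of the 8 omissions and the Sema5a call in all 8.

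**Figure D1:**
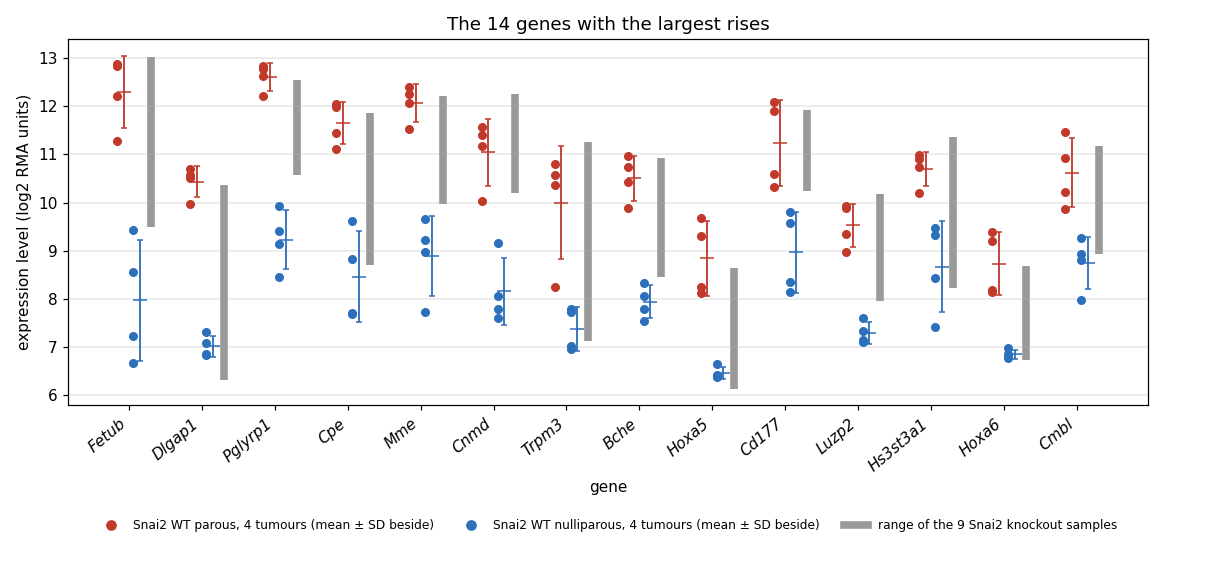
Levels (log2 RMA units, vertical axis) of the 14 genes with the largest rises off chromosomes 2 and 4 and outside the interferon list, predicted genes left out. Red points are the 4 parous and blue points the 4 nulliparous WT tumours, with mean ± SD beside them, and grey bars span the 9 KO samples. The red and blue points of each gene do not overlap; for Fetub they lie between 11.27 and 12.88 and between 6.67 and 9.44.

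Adjacent genes of the Hoxa cluster, Hoxa4 to Hoxa7, rose. Hox genes encode homeodomain transcription factors and lie in the order in which they are used along the body axis. Hoxa5 was at 8.12, 8.25, 9.31 and 9.68 in parous and 6.65, 6.43, 6.38 and 6.4 in nulliparous tumours (2.38, SE 0.52, adjusted p = 0.0362). Hoxa6 was at 8.14, 8.19, 9.2 and 9.38 against 6.85, 6.79, 6.77 and 6.98 (1.88, SE 0.45, adjusted p = 0.0468). In both genes the nulliparous tumours were near the dim end and close together, and parous 3 and 4 were the highest. Hoxa7 (0.67, SE 0.15, adjusted p = 0.0353) and Hoxa4 (0.40, SE 0.09, adjusted p = 0.0423) rose by less. Their neighbours Hoxa3 (1.22, SE 0.31, adjusted p = 0.0624), Hoxa2 (0.53, SE 0.14, adjusted p = 0.0675) and Skap2, an adaptor protein gene (0.82, SE 0.21, adjusted p = 0.0593), did not pass. On the other side, Hoxa9, Hoxa10, Hoxa11 and Hoxa13 had differences of -0.01, 0.05, -0.02 and -0.01, and none passed. Thus 4 of 11 measured Hoxa genes rose, and of 27 genes of the Hoxb, Hoxc and Hoxd clusters 0 passed (median -0.02). The Hoxa5 call ended without any 1 of 7 tumours (adjusted p up to 0.11, difference between 2.10 and 2.62). The Hoxa4 and Hoxa6 calls ended without any 1 of the 8 WT tumours (adjusted p up to 0.121 and 0.141). The Hoxa7 call held in 2 of these 8 omissions (adjusted p up to 0.106).

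Enzymes that place the 3-O-sulfate on heparan sulfate rose as well; this family was picked after its values were seen. Hs3st3a1 was at 10.73, 10.9, 10.98 and 10.19 in parous and 8.44, 9.48, 9.33 and 7.42 in nulliparous tumours (2.03, SE 0.45, adjusted p = 0.0356). Hs3st3b1, which lies near it on chromosome 11, was at 11.09, 11.21, 11.35 and 10.98 against 9.82, 10.07, 10.28 and 9.99 (1.12, SE 0.15, adjusted p = 0.00707). Hs3st1, on chromosome 5, rose by 1.23 (SE 0.30, adjusted p = 0.0496), with nulliparous 3 at 11.03 close to the lowest parous value of 11.12. With each of the 8 WT tumours left out in turn, the Hs3st1 call held in 1 omission (adjusted p up to 0.152). The Hs3st3a1 call held in 2 (adjusted p up to 0.106) and the Hs3st3b1 call in all 8. Cox10, which lies between the 2 genes on chromosome 11, had a difference of -0.04 (adjusted p = 0.886). The other members, Hs3st2, Hs3st4, Hs3st5 and Hs3st6, lay between -0.21 and 0.00 and did not pass. Of 16 other genes that build, sulfate or cleave heparan sulfate 0 rose and 2 fell (Extl1 and Extl3), with a median of -0.11.

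Neighbours on 2 further chromosomes shared a direction and were also picked after their values were seen. Beside Fetub on chromosome 16, Kng2, a kininogen gene, rose by 0.94 (SE 0.22, adjusted p = 0.0414). Ahsg, the paralog of Fetub, was at 9.17, 7.25, 9.6 and 9.47 against 6.89, 7.22, 7.49 and 7.11 and did not pass (1.70, SE 0.84, adjusted p = 0.347), parous 2 being as low as the nulliparous tumours. Hrg, between Fetub and Kng2, had a difference of 0.02. On chromosome 17 the zinc finger genes Zfp52, Zfp983, Zfp229 and Zfp948 rose by 0.90, 0.86, 0.77 and 0.53 (adjusted p from 0.0124 to 0.0354). They are 4 of 37 measured Zfp genes of that chromosome, of which 32 lay above 0 (median 0.24). Over the 317 Zfp genes of all chromosomes 6 rose (also Zfp300 and Zfp652), 3 fell (Zfp46, Zfp593 and Zfp691, all on chromosome 4) and the median was 0.06. Genes of this kind and class I MHC genes have near-identical copies, so a probe set can read more than 1 of them.

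Regulators of growth were scattered among the rises rather than moving as lists. Cdkn1b, the CDK inhibitor p27, was between 11.28 and 11.42 in parous and between 10.69 and 10.98 in nulliparous tumours (0.50, SE 0.09, adjusted p = 0.0166). It was the 1 of 22 p53 targets and CDK inhibitors that passed (median -0.13), and 0 of 37 cell cycle and mitosis genes passed (median -0.03). Mycn, a Myc family transcription factor, was between 7.73 and 7.82 against 7.14 to 7.36 (0.50, SE 0.09, adjusted p = 0.0192). Foxp1, a forkhead repressor, rose by 0.78 (SE 0.14, adjusted p = 0.0164) and Nab2, a corepressor of Egr factors, by 0.99 (SE 0.18, adjusted p = 0.0177). Dusp7, a phosphatase that inactivates ERK, was between 11.52 and 11.77 in parous and between 12.19 and 12.43 in nulliparous tumours (-0.67, SE 0.11, adjusted p = 0.0162). Mycn, Foxp1, Nab2 and Dusp7 were named after their values were seen.

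Signalling lists showed few calls. Of the ERBB receptors and ligands 0 of 14 passed (median -0.04), the smallest p-values being those of Egfr (-0.33, adjusted p = 0.245) and Hbegf (0.71, adjusted p = 0.296). Of the Wnt, Notch and TGF-beta lists 0 of 38, 0 of 21 and 0 of 32 genes passed, with medians of -0.02, 0.00 and 0.04. The values nearest to the threshold there were Lrp6 (0.25, adjusted p = 0.0559), a Wnt coreceptor, and Notch2 (0.30, adjusted p = 0.057). Of the hormone receptor and Stat5 list 0 of 16 passed; Stat5a, which drives milk gene expression, was at -0.70 (SE 0.18, adjusted p = 0.0674). Across 46 lists, 10 held a rise, 13 held a fall and 25 held no called gene, and 25 medians lay within 0.1 of 0. These counts and medians include list members on chromosomes 2 and 4, such as the fallen gene Sdhb. Off those chromosomes the median of the macrophage and monocyte list was -0.38 rather than -0.52, and that of the milk list -0.14 rather than -0.22. The fibroblast and skeletal muscle medians stayed at -0.58 and -0.82, and that of hypoxia and glycolysis was 0.45 rather than 0.43.

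**Figure D2:**
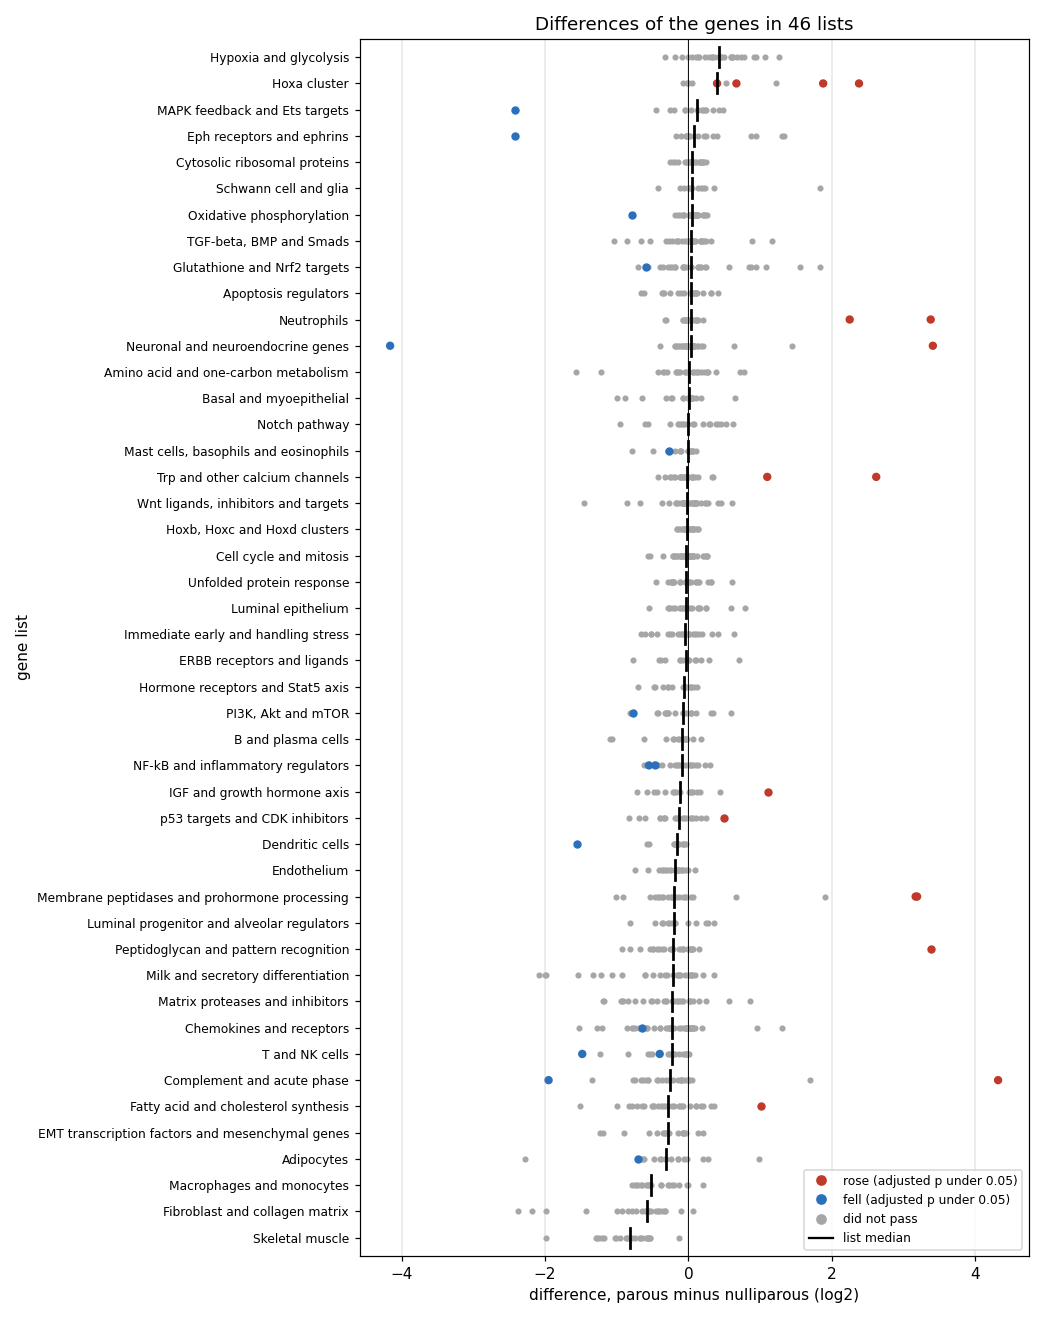
Log2 differences, parous minus nulliparous (horizontal axis), of every measured gene in 46 lists ordered by their median (black ticks). Red and blue points passed the threshold; medians run from -0.82 for skeletal muscle to 0.43 for hypoxia and glycolysis, and the calls are single genes in most lists.

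Among metabolic genes, the hypoxia list split the nulliparous tumours. Of 28 hypoxia and glycolysis genes 24 lay above 0, the highest median of the 46 lists (0.43), but none passed, the smallest adjusted p being 0.0649 for P4ha1, a collagen prolyl hydroxylase (0.74). Averaged over the list, the level was 11.35, 11.30, 11.38 and 11.43 in parous tumours and 10.69, 11.60, 10.74 and 10.71 in nulliparous tumours. Nulliparous 2 was thus above every parous tumour, and the other 3 nulliparous tumours were below every parous tumour. Bnip3, a mitophagy receptor induced by hypoxia, was at 11.74, 11.8, 12.1 and 11.79 in parous and 10.01, 12.24, 10.16 and 9.94 in nulliparous tumours (1.27, adjusted p = 0.15). With each WT tumour left out in turn the median of the list ran from 0.36 (without nulliparous 1 or 3) to 0.62 (without nulliparous 2). Without nulliparous 2, the tumour that stands apart on this list, 9 of 28 genes passed, all of them rises, against 108 rises among all 19938 genes. Since the level of nulliparous 2 on these genes singles it out, that count is a description and no test. Of 30 fatty acid and cholesterol synthesis genes 22 lay below 0 (median -0.28). One passed, against that direction: Elovl5, which elongates polyunsaturated fatty acids, was at 12.26, 12.43, 12.62 and 12.85 in parous and 11.42, 11.76, 11.62 and 11.32 in nulliparous tumours (1.01, SE 0.21, adjusted p = 0.0311). Fasn, fatty acid synthase, was at -0.62 (SE 0.16, adjusted p = 0.0624). Of 33 oxidative phosphorylation genes 1 fell, Sdhb on chromosome 4, and the median was 0.05.

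Milk genes did not pass. Of 29 genes of milk and secretory differentiation 22 lay below 0 (median -0.22). The casein Csn1s2a was at 11.87, 13.64, 12.12 and 8.73 in parous and 14, 12.95, 11.15 and 13.59 in nulliparous tumours (-1.33, SE 0.90, adjusted p = 0.523). The ranges overlapped, and parous 4 was the lowest of all 8 for Csn1s2a and for Csn1s1. Wap, whey acidic protein, was between 7.48 and 7.90 in parous tumours and at 9.70, 10.01, 7.55 and 8.34 in nulliparous ones (-1.22, adjusted p = 0.407). Without nulliparous 1 the median of the list was -0.06, and without nulliparous 3 it was -0.46.

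Among the largest falls were class I MHC and complement genes that the interferon list did not hold, though they belong to the same processes. H2-T10 was at 10.42, 8.68, 8.69 and 9.77 in parous and 12.07, 11.01, 12.27 and 11.67 in nulliparous tumours (-2.36, SE 0.36, adjusted p = 0.00997). H2-Q4, H2-Q5 and H2-M3 fell by 2.20, 1.26 and 1.22, and H2-K2 is also among the 97 fallen genes. The H2 genes outside the interferon list that did not fall were not counted, so no share of H2 genes is given. Cfb, complement factor B, was at 7.73, 8.64, 7.27 and 7.56 against 10.37, 9.35, 9.77 and 9.48 (-1.95, SE 0.36, adjusted p = 0.0192). Of 29 complement and acute phase genes 24 lay below 0 (median -0.26), but Cfb alone fell and Fetub alone rose. Sectm1a, a secreted and transmembrane protein that binds T cells, fell by 1.73 (SE 0.36, adjusted p = 0.0306). Tnfsf10, the death ligand TRAIL, fell by 1.26 (SE 0.29, adjusted p = 0.0399) and Tnf by 0.46 (SE 0.10, adjusted p = 0.0342).

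Nkg7 and Ncr1, genes of cytotoxic lymphocytes, fell too. Nkg7, a granule protein of NK and cytotoxic T cells, was at 6.74, 6.69, 6.55 and 6.48 in parous and 7.83, 7.14, 9.43 and 8.01 in nulliparous tumours (-1.48, SE 0.34, adjusted p = 0.0385). The groups did not overlap, and nulliparous 3 was the highest. Ncr1, the NK cell receptor NKp46, was between 5.43 and 5.64 against 5.68 to 6.12 (-0.40, SE 0.09, adjusted p = 0.042), near the bottom of the scale. These were the 2 of 26 T and NK cell genes that passed, and 24 of the 26 lay below 0 (median -0.23). List means were 6.32 to 6.41 in parous and 6.43, 6.65, 6.71 and 7.17 in nulliparous tumours; Cd3e, which marks T cells, was at -0.56 (adjusted p = 0.0704) and Cd8a at -0.41 (adjusted p = 0.379). In bulk tumours, fewer cells of a type and less RNA per cell cannot be told apart. Plac8, expressed in myeloid and lymphoid cells, fell by 1.26 (SE 0.29, adjusted p = 0.0433), Ccl12, a monocyte chemokine, by 0.64 (SE 0.13, adjusted p = 0.0271) and Cma1, mast cell chymase, by 0.27 (SE 0.06, adjusted p = 0.0304). Of 21 macrophage and monocyte genes 20 lay below 0 (median -0.52) and none passed; Cd68 was at -0.01 and Csf1r at -0.55 (adjusted p = 0.991 and 0.372).

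Pglyrp1 and Cd177, which neutrophils are known to carry, rose while other neutrophil genes did not pass. Cd177 was at 10.33, 12.09, 11.9 and 10.6 in parous and 9.58, 9.8, 8.15 and 8.36 in nulliparous tumours (2.25, SE 0.49, adjusted p = 0.0336). Of 21 neutrophil genes these 2 rose, 12 lay above 0 and the median was 0.04. The defining markers S100a8, S100a9 and Ly6g were dim, at the 24, 30.7 and 11 percentiles, and differed by 0.20, 0.04 and 0.02 (adjusted p from 0.794 to 0.961). The part of neutrophil content in the rises of Pglyrp1 and Cd177 was not tested.

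**Figure D3:**
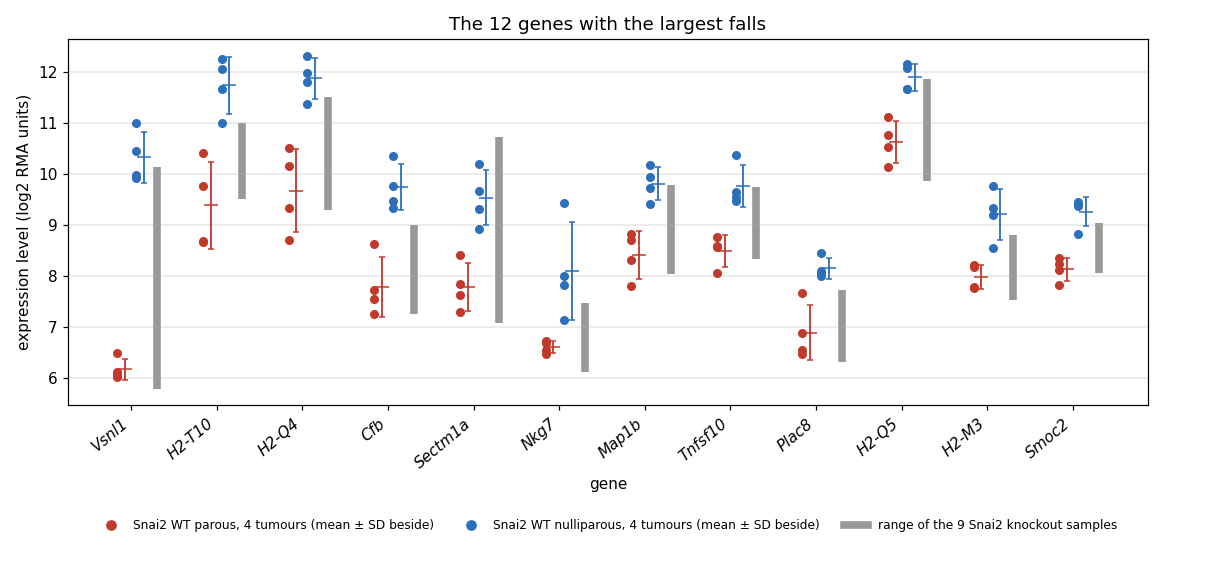
Levels (log2 RMA units, vertical axis) of the 12 genes with the largest falls off chromosomes 2 and 4 and outside the interferon list, predicted genes left out. Gm12250 (-2.09), left out for its name, is thus not shown. Symbols are as in the plot of the risen genes. Red parous points lie below blue nulliparous points in every gene; for Vsnl1 they lie between 6.03 and 6.49 and between 9.93 and 11.

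Smoc2 fell, while no gene of the fibroblast list passed. Smoc2, a matrix glycoprotein, was at 7.83, 8.37, 8.12 and 8.25 in parous and 9.46, 9.38, 9.41 and 8.84 in nulliparous tumours (-1.13, SE 0.18, adjusted p = 0.0105). Of 25 fibroblast and collagen genes 24 lay below 0 (median -0.58) and none passed; Lum, a collagen-binding proteoglycan, was at -1.98 (SE 0.53, adjusted p = 0.071). The mean level of that list was 9.12, 10.12, 8.21 and 9.05 in parous and 10.21, 10.38, 9.52 and 9.46 in nulliparous tumours. Parous 2 lay within the nulliparous range and parous 3 stood lowest. For Smoc2, parous 2 was again the highest parous tumour (8.37), and parous 1 was the lowest (7.83). The part of stromal content in the fall of Smoc2 was not tested. The median of the fibroblast list was -0.86 without parous 2 and -0.32 without parous 3. Of 20 genes of epithelial-mesenchymal transition 18 lay below 0 (median -0.28) and none passed, nor did any of 22 endothelial genes (median -0.19, 21 below 0).

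Muscle and fat genes were high in 1 nulliparous tumour. All 24 skeletal muscle genes lay below 0 (median -0.82) and none passed. Their mean was 10.52 in nulliparous 1 and between 7.05 and 8.07 in the other 7 WT tumours. Without nulliparous 1 the median was -0.04. Lipe, hormone-sensitive lipase, was at 8.63, 8.83, 8.62 and 8.58 in parous and 9.75, 9.1, 9.22 and 9.37 in nulliparous tumours (-0.70, SE 0.14, adjusted p = 0.0274), the highest being nulliparous 1. It was the 1 of 18 adipocyte genes that passed. Adipoq, which fat cells define, was at 8.12 in nulliparous 1 and between 5.94 and 6.54 in the others, and the adipocyte median moved from -0.32 to -0.14 without nulliparous 1. The Lipe values of the other 3 nulliparous tumours still lay above all parous ones, but the call ended in 5 of 8 omissions (adjusted p up to 0.091).

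**Figure D4:**
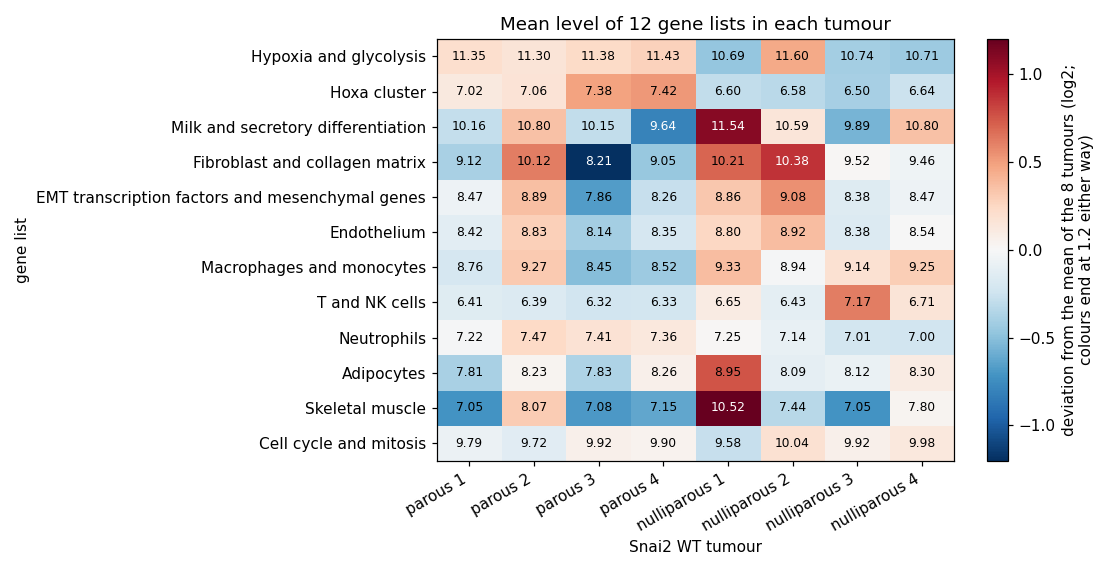
Mean level (log2 units, printed in each cell) of 12 gene lists in the 8 WT tumours, coloured by the deviation from the mean of the 8. The muscle list stands at 10.52 in nulliparous 1 and the hypoxia list at 11.60 in nulliparous 2, while the Hoxa list is at least 7.02 in parous and at most 6.64 in nulliparous tumours.

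The tumours of each group differed among themselves. Over expressed genes off chromosomes 2 and 4 and outside the interferon list, the SD of the difference between 2 tumours was 0.315 to 0.44 within the parous group (median 0.347, 6 pairs). It was 0.30 to 0.485 within the nulliparous group (median 0.40, 6 pairs) and 0.368 to 0.602 between groups (median 0.492, 16 pairs), so the ranges overlapped. The first principal component held 43.3% of the variance and put the nulliparous tumours between 4.7 and 27.1 and the parous tumours between -25.4 and -1.3, with parous 2 nearest to the nulliparous side. Among the 107 risen genes parous 1 or 2 was the lowest parous tumour in 38 and 40, and parous 4 the highest in 48. Among the 97 fallen genes nulliparous 2 was the lowest nulliparous tumour in 50.

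The genes with the widest spread within a group were of different kinds. Chia1, an acidic chitinase, was at 12.71 in nulliparous 3 and between 6.28 and 6.50 in the other 7 tumours. Amy1, salivary amylase, was at 11.09 there and between 5.83 and 6.27 in the others. Myl1, a skeletal muscle myosin light chain, was at 12.29 in nulliparous 1 and between 6.16 and 8.45 in the other nulliparous tumours. Odam, a protein of enamel-forming cells that mammary tumours can express, was at 11.93 in nulliparous 3 and 10.36 in parous 1, against 6.61 to 7.85 in the remaining 6. Within the parous group Ces1d, a carboxylesterase, was at 10.46 in parous 4 against 5.90 to 7.22, and Scgb1b27, a secretoglobin, at 8.59 in parous 2 against 12.07 to 12.96. Dcn, decorin, was at 7.55, 11.63, 6.57 and 10.22 in parous tumours and between 10.72 and 12.11 in nulliparous ones.

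Whole chromosomes shifted in single tumours. The median deviation of the expressed genes of chromosome 8 was -0.41 in parous 4 and between -0.02 and 0.10 in the other 7, and that of chromosome 15 was 0.32 in parous 4 and 0.12 in parous 3. Chromosome 5 stood at 0.19 in parous 1 and 0.25 in nulliparous 3. On chromosome 8, Mphosph6, Atmin, Zdhhc7 and Abcb10 fell by 0.95, 0.77, 0.54 and 0.57, and parous 4 had the lowest value of each. Mphosph6, an RNA processing factor, was at 9.32, 9.61, 9.64 and 8.58 in parous and between 10.13 and 10.29 in nulliparous tumours. Without parous 4 the differences of Mphosph6, Atmin, Zdhhc7 and Abcb10 were -0.71, -0.61, -0.41 and -0.46. All 4 calls ended there (adjusted p from 0.0551 to 0.0909). These calls ended without other tumours too. The Mphosph6 call ended without any 1 of the 8 WT tumours, and the Atmin, Abcb10 and Zdhhc7 calls held in 4, 3 and 2 of the 8 omissions. Over all genes, 85 calls remained without parous 4, against 478 with all tumours. Ddhd2, a lipase gene of the same chromosome, was lowest in parous 3 and fell by 1.07 (SE 0.17, adjusted p = 0.00997). On chromosome 15, Cmbl was at 9.87, 10.22, 10.93 and 11.46 in parous tumours, highest in parous 4. Without parous 4 the difference was 1.60 and the call ended (adjusted p = 0.105). Over the 8 omissions of a WT tumour the Cmbl call held in 2. Ghr, Sema5a and Zfr lie on chromosome 15 too, where 12 of 747 genes rose and 2 fell, against 0.542% and 1.86% of all genes. Off chromosomes 2 and 4 and outside the interferon list, the shares were 0.632% and 0.573%. Sema5a was at 11 and 11.01 in parous 3 and 4 and at 10.27 and 10.3 in parous 1 and 2. The Sema5a and Zfr calls held in all 8 omissions of a WT tumour. Of 102 windows of consecutive genes off chromosomes 2 and 4, 19 were shifted by over 0.2 in at least 1 tumour. In windows shifted their way lay 14 of 97 risen and 16 of 74 fallen genes, against 8.92% and 13.6% of all 10120 genes in windows. The part of these shifts in single calls was not tested.

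**Figure D5:**
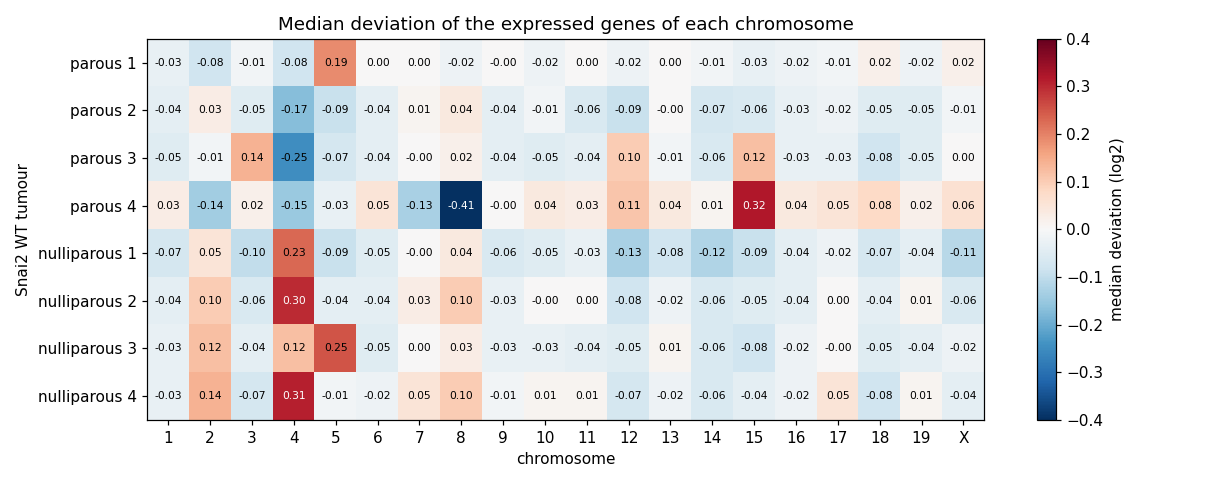
Median deviation (log2, printed and coloured) of the expressed genes of each chromosome (horizontal axis) from the mean of all 17 samples, in the 8 WT tumours. Parous 4 stands apart on chromosomes 8 (-0.41) and 15 (0.32); chromosome 4 is below 0 in all parous and above 0 in all nulliparous tumours.

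The KO tumours were set beside these genes. All 9 KO samples lay on the parous side of all 4 nulliparous WT tumours in 28 of 107 risen and 26 of 97 fallen genes, against 1.28% of all genes. The reverse, all 9 on the nulliparous side of the parous WT tumours, held for 3 risen genes (Crim1, Sema5a and a predicted gene) and 2 fallen genes (Amigo3 and Brpf1), against 0.361% of all genes. The parity rule chose genes by the same WT values, so these shares are a description. Pglyrp1 lay between 10.58 and 12.55 in the KO samples with a median of 11.77, between the 2 WT groups for the most part: all above the highest nulliparous value of 9.92, and the median below the lowest parous value of 12.2. Cnmd lay between 10.2 and 12.26 with a median of 11.6, above every nulliparous tumour. Hoxa5 lay between 6.14 and 8.65 with a median of 6.83, near the nulliparous WT range, and Crim1, a cell surface regulator of growth factors, between 8.29 and 9.29 against 8.84 to 9.27 in nulliparous and 9.71 to 9.90 in parous WT tumours. Vsnl1 had a KO median of 6.10 and a highest KO value of 10.14.

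Parity within KO mice without metastasis (3 against 3) gave other values for the same genes. Of the 107 risen genes 52 lay above 0 there (median -0.01), and of the 97 fallen genes 46 lay below 0 (median 0.01). Of the 14 largest rises 5 lay above 0 there, from -1.35 (SE 0.72) for Dlgap1 to 1.23 (SE 0.45) for Cnmd; Fetub was at -0.09 (SE 0.98), Pglyrp1 at -0.12 (SE 0.49) and Mme at -0.09 (SE 0.57). Trpv4 was at 0.77 (SE 0.28) and Vsnl1 at -1.61 (SE 0.75). No gene passed in that comparison by limma, with 655 (3.29%) at an unadjusted p under 0.05. The difference between the 2 parity contrasts passed in 0 genes too, with 1922 (9.64%) at an unadjusted p under 0.05 and a smallest adjusted p of 0.267, so the contrasts were not shown to differ in any gene. The 2 pairs of groups differ in metastasis as well as in genotype.

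Calls depended on single tumours. With each WT tumour left out in turn, the calls off chromosomes 2 and 4 and outside the list ranged from 13 to 127 rises and from 8 to 133 falls. The lowest counts came without nulliparous 4 (13 and 8), nulliparous 1 (14 and 9), parous 4 (17 and 15) and parous 3 (18 and 10). Without parous 1 and parous 2 they were 56 and 47 and 70 and 55, and without nulliparous 3, 127 and 80. In all 8 omissions 11 rises and 7 falls were called. The rises were Pglyrp1, Mme, Cnmd, Luzp2, Hs3st3b1, Sema5a, Aplp2, Fundc2, Plekhb1, Zfr and 1 predicted gene, and the falls Vsnl1, H2-T10, Smoc2, Ddhd2, Insl6, Mitd1 and Ttyh3. Of the 14 largest rises 4 were among them and of the 12 largest falls 3; the others lost the call in at least 4 omissions, with adjusted p up to 0.142.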

How the data were processed

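The deposited values are log2 expression levels made by the authors with RMA in the oligo package, per the submitters' processing notes; no versions are named. RMA subtracts background, equalises array distributions by quantiles and summarises probes, which compresses dim genes. Arrays have no sequencing depth; their number sets the precision. Array medians lay between 7.60 and 7.67. Probe sets with 1 gene in the platform annotation were used (21789 of 35556), the brightest per gene, which gave 19938 genes, 19855 of them matched to RefSeq (GRCm38.p6) for names and gene order.

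A pair of KO parous arrays with metastasis was nearly identical and was averaged, which left 17 samples. Keeping the pair apart is an alternative. Moderated 2-sided tests came from limma 3.58.1 (R 4.3.3; lmFit, eBayes) on 6 group means, with Benjamini-Hochberg adjusted p under 0.05. The labels call the arrays biological replicates. On data simulated for this comparison over 19938 genes, 32%, 80%, 92% and 96% of genes changed by a log2 of 0.5, 1, 2 and 3 were recovered. The changed genes were drawn from outside the dimmest 40%, and the simulated noise was independent between genes. These shares thus do not cover dim genes or shifts that many genes of a tumour share. Alternatives were other samples in the fit, filters, normalizations, probe sets, spread estimates, array weights and each sample left out. A list level is the mean log2 value of its genes in a sample.

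The groups compared, the 46 lists and the rule for named genes were chosen with earlier results of these data known. The rule took the 14 largest rises and 12 largest falls without overlap between groups, off chromosomes 2 and 4 and outside the interferon list, leaving out predicted genes and olfactory and vomeronasal receptors. It added up to 3 passing genes per list and direction, the 2 smallest p-values of lists with none, the 5 widest spreads in each group, Snai2, Erbb2 and keratins. Other genes were named after their values were seen. Motifs were searched in the 250 bases upstream of the first RefSeq start of a gene.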

Additional observations from a re-analysis of the deposited data

Results flagged for a closer look

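In each WT group of 4 tumours, the gap between the highest or lowest tumour and the nearest other was divided by the range of the group and set against Dixon's 95% critical value for 4 values. Of 394 groups of 4 values (genes named in the text and list means), 23 exceeded it. Some of these genes were named for a wide spread within a group, for not overlapping between groups or after their values were seen. The count is thus a description, and no rate by chance can be set beside it.

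Nulliparous 1 stood apart from its group in Mb (10.39 against 9.04 to 9.16, ratio 0.915). Nulliparous 2 stood apart from its group in Egfr (11.13 against 10.84 to 10.88, ratio 0.860). Nulliparous 3 stood apart from its group in Amy1 (11.09 against 5.83 to 6.27, ratio 0.916), Bmp6 (7.64 against 7.92 to 7.96, ratio 0.862), Chia1 (12.71 against 6.28 to 6.47, ratio 0.971), Fundc2 (10.36 against 10.01 to 10.05, ratio 0.881) and Plekhb1 (10.81 against 10.7 to 10.71, ratio 0.859). Nulliparous 4 stood apart from its group in Smoc2 (8.84 against 9.38 to 9.46, ratio 0.877).

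Parous 1 stood apart from its group in Bak1 (8.97 against 9.4 to 9.45, ratio 0.891) and Odam (10.36 against 6.61 to 6.92, ratio 0.917). Parous 2 stood apart from its group in Hs3st1 (11.12 against 11.44 to 11.45, ratio 0.984), Hs3st6 (7.64 against 7.72 to 7.74, ratio 0.843) and Lfng (8.27 against 7.77 to 7.86, ratio 0.831). Parous 4 stood apart from its group in Cdh3 (7.1 against 7.58 to 7.63, ratio 0.905), Csn1s1 (8.46 against 12.16 to 12.75, ratio 0.862), Krt19 (6.92 against 6.51 to 6.57, ratio 0.859), S100b (10.42 against 9.36 to 9.53, ratio 0.840) and Stat5a (9.6 against 10.01 to 10.06, ratio 0.895).

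ERBB receptors and ligands had a list mean of 8.34 in parous 2 and 8.74 to 8.81 in the others of its group (ratio 0.863). Hypoxia and glycolysis had a list mean of 11.6 in nulliparous 2 and 10.69 to 10.74 in the others of its group (ratio 0.938). Glutathione and Nrf2 targets had a list mean of 10.36 in parous 1 and 10.54 to 10.57 in the others of its group (ratio 0.830). Peptidoglycan and pattern recognition had a list mean of 8.46 in parous 2 and 8.22 to 8.24 in the others of its group (ratio 0.919). Skeletal muscle had a list mean of 8.07 in parous 2 and 7.05 to 7.15 in the others of its group (ratio 0.906).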

How the results depend on the processing

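Over all genes, 478 passed, 108 rises and 370 falls; off chromosomes 2 and 4 and outside the interferon list, 204 did. With the 8 WT tumours alone, which take the spread from the groups compared, 878 genes passed (249 and 629), 455 of them off those chromosomes and the list (240 and 215). With estimated array weights 1718 passed (571 and 1147), and 1073 off them (550 and 523); the cause was not tested. With the replicate number as a block in the 8 WT tumours, 239 passed (64 and 175), and 93 off them (61 and 32). Same-numbered tumours had correlations of -0.154, 0.07, 0.014 and 0.035, and differently numbered ones ran from -0.354 to 0.443. These values showed no pairing by number, but with 4 tumours a group they cannot decide whether the numbers pair the tumours. Quantile normalization again gave 150 rises and 67 falls there, 69.1% rises against 52.5%. The other alternatives kept all these counts within 1.5 times. With each of the 17 samples left out in turn, the count ranged from 57 to 770 over all genes (rises 13 to 182, falls 44 to 588). Off chromosomes 2 and 4 and outside the list it ranged from 21 to 348 (rises 13 to 176, falls 8 to 172). The highest came without replicate 2 of the KO parous tumours without metastasis, which enter the shared spread estimate. The difference between the KO and WT parity contrasts passed in 0 to 8 genes with a sample left out (8 without nulliparous WT replicate 2), and in 0 genes under the 3 other alternatives run. No named gene that passed changed sign under any alternative run. An array has no read depth; dim genes such as Snai2 have compressed differences, and 4 tumours a group limit the precision.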
